A study of Mus musculus with 6 samples.

Results

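The genes described here are 51 genes of synaptic vesicle release, taken by symbol from a fixed list of SNARE proteins and their regulators, synaptotagmins and Doc2 proteins, vesicle membrane proteins, synapsins, Rab3 proteins, active zone scaffolds and priming factors. Each symbol was matched by Ensembl identifier through the GENCODE M21 annotation to the mouse count tables, which list 60354 features. All 51 had a count in these tables and all 51 passed the filter on low counts, which left 18580 features for testing. The genes were named by function, and the rule uses no measured value. The list, its roles, the pathway lists and the marker lists were, however, chosen with earlier results of these data known. The shares of genes called below therefore do not come from a blind choice.

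The data are polyA-selected RNA-seq libraries of whole brain from 6 male C57BL/6NCrSlc mice, 3 on each of a pair of diets. PLDP mice ate a modified AIN-93M diet containing 20% PLDP, a porcine liver preparation digested with protease. Control mice ate a modified AIN-93M diet brought to the same calories. Feeding began at an age of 16 weeks and lasted 16 weeks in both groups, behavioral tests followed without PLDP in the food, and RNA was taken after those tests in both groups. The question put to the release genes was whether their transcripts differed between PLDP mice and control mice. Libraries held 18797061 to 23938729 counts, log2 levels correlated between libraries with Pearson's r of 0.996 to 0.997 across features, and pan-neuronal markers were measured for 11 genes with a summed level of 5698 to 5913 CPM (a gene's read count scaled to a library of common size) in every mouse. In bulk tissue, fewer cells of a type and less RNA per cell cannot be told apart.

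At a nerve terminal, vesicles filled with transmitter are tethered near the active zone by large scaffold proteins, made ready by priming factors, and fused with the plasma membrane when a SNARE complex zips together. Complexins hold and assist the assembled SNARE complex, synaptotagmins sense the calcium that enters with an action potential, and NSF with its SNAP adaptors takes spent complexes apart again. Synapsins keep a reserve of vesicles clustered behind the active zone, and Rab3 proteins with their effectors mark vesicles that are ready to dock.

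Promoter sequence is shown for 4 of the genes whose levels differed between the diets at an unadjusted p under 0.05 and whose windows hold a searched motif, so that the letters behind the motif counts can be seen. The windows are from RefSeq on GRCm38.p6 and run from 250 bases before to 50 bases after the annotated start, 5′ to 3′ on the gene's own strand, with motif letters in capitals. Unc13a is at chr8:71671708-71672007 on the minus strand and holds 2 GC boxes (GGGCGG or its reverse complement CCGCCC), of which the second overlaps an EGR site (GCGTGGGCG or its reverse complement CGCCCACGC). Vamp1 is at chr6:125215331-125215630 on the plus strand and holds 1 GC box. Bsn is at chr9:108190334-108190633 on the minus strand and holds 2 NRF1 sites (GCGCA followed by its reverse complement TGCGC). Syn1 is at chrX:20920869-20921168 on the minus strand and holds a cAMP response element (TGACGTCA) that begins 159 bases before the start.
Unc13a: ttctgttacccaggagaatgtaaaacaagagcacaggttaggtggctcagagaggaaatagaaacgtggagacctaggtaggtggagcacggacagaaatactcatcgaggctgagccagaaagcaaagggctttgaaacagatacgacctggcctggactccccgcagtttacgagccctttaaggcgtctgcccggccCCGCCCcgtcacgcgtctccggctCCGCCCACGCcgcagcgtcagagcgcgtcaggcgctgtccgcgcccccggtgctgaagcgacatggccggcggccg
Vamp1: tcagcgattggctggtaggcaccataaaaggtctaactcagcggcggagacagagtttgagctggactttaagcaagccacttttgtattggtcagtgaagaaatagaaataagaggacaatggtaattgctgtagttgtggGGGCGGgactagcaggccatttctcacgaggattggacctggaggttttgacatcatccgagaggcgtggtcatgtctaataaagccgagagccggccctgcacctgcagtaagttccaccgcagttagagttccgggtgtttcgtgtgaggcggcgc
Bsn: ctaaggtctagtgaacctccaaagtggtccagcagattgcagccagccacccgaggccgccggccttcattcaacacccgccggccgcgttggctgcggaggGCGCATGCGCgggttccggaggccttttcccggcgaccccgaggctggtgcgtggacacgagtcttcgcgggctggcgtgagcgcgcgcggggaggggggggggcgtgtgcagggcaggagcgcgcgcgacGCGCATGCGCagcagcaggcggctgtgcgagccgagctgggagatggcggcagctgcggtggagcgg
Syn1: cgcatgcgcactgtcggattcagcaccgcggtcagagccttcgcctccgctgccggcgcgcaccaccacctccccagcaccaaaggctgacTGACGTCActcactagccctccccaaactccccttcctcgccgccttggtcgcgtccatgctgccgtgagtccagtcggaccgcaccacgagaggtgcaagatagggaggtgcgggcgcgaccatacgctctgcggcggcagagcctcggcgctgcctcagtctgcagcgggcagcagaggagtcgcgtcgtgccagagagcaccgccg

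Windows were matched for 40 of the 51 genes, and motifs were counted on both strands over the windows of 27025 genes. A GC box stood in 31 of the 40 release genes (77.5%) and in 38.2% of all genes. The median GC content of the windows was 62.7% in the release genes and 52.8% over all genes. A cAMP response element was found in 2 release genes (5%, Napa and Syn1) against 2.03% of all genes, and the NRF1 letters in 2 (5%, Bsn and Stxbp5) against 1.07%. TATAAA stood in 2 release genes (5%, Rab3b and Sv2b) against 15.7% of all genes, and the EGR letters in Unc13a alone among the 40 (2.5%) against 0.707% of all genes. Of the 6 genes called higher in PLDP mice that had a window, 3 held a GC box, 1 a cAMP response element, 1 the NRF1 letters and 1 the EGR letters. No motif was shared by all of them. The Cplx2 window held none of the searched motifs and lies 68793 bases from the start that GENCODE M21 gives for that gene, so it is not printed.

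The release genes differed widely in level in the whole brain. Levels between genes were compared as CPM scaled by the trimmed mean of M-values (TMM) and divided by the length of the gene's exons in kb, as the mean over the 6 mice. Cplx1, the complexin of fast synapses, stood first at 376 ± 10.5 CPM per kb (SD, n = 6). The plasma membrane SNARE Snap25 followed at 276 ± 4.99, the vesicle protein synaptophysin (Syp) at 264 ± 9.46, the vesicle SNARE Vamp2 at 240.2 ± 7.25, Cplx2 at 225 ± 12.3 and the vesicle GTPase Rab3a at 216 ± 4.52 CPM per kb. Snap25 and Syp lay closer together than their SDs allow to separate, with ranges of 269.8 to 282 and 250.04 to 278 CPM per kb, and the ranges of Vamp2 (229.6 to 248) and Cplx2 (212 to 240.2) also met. Cplx1 stood clear of all others, since its lowest mouse had 365 CPM per kb.

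Each role had a leading gene in this ranking. Synaptotagmins and Doc2 proteins are grouped here as calcium sensors, although not all of them bind calcium. In this group Syt11, a synaptotagmin that does not bind calcium, had 152 ± 4.81 CPM per kb. The fast sensor Syt1 had 134 ± 3.51, and the ranges (143 to 157 and 129 to 138) did not meet. Syn1 led the synapsins at 139 ± 5.68 CPM per kb, Nsf, the ATPase that dismantles SNARE complexes, led its group at 85.0 ± 1.94, and Rims3 led the active zone scaffolds at 31.0 ± 0.977. Unc13a (Munc13-1), which opens syntaxin for SNARE assembly, led the priming factors at 23.9 ± 1.54 CPM per kb. At the other end stood Syn3 at 1.26 ± 0.128, Unc13b at 1.76 ± 0.0734, Erc1 at 3.35 ± 0.239 and the retina-rich complexin Cplx3 at 3.72 ± 0.421 CPM per kb. The vesicle and SNARE genes filled the upper ranks, and the scaffolds and priming factors most of the lower ranks.

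**Figure D1:**
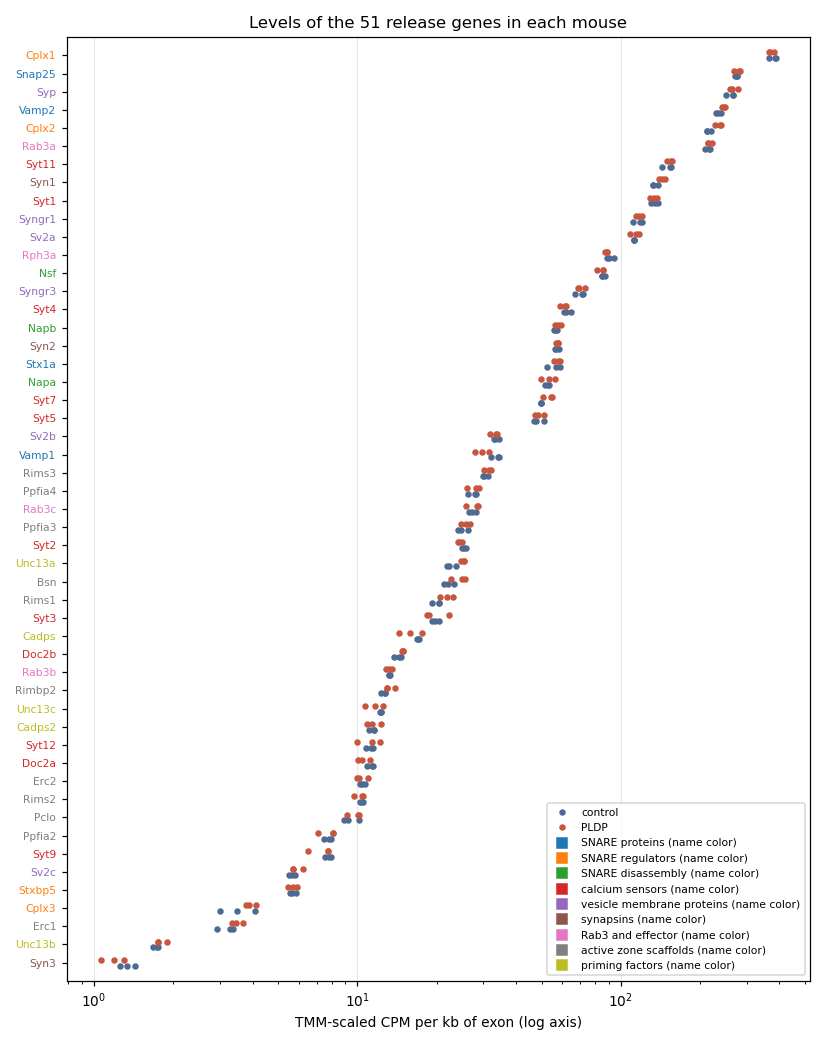
Level of each of the 51 release genes in each mouse, as TMM-scaled CPM per kb of exon on a log axis, with control mice in blue and PLDP mice in red and gene names colored by role. Genes run from Cplx1 (376 CPM per kb) to Syn3 (1.26 CPM per kb), and the 6 mice of a gene lie close together beside the distance between genes.

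Across the list the diets were close. The median log2 fold change (PLDP over control mice) was 0.02 over the 51 genes and -0.00062 over all 18580 features tested, and the median absolute log2 fold change was 0.03 in the release genes, 0.07 over all features and 0.05 over the 10650 features in the same range of mean CPM. The release genes were also steady between mice of a diet, with a median coefficient of variation of 3.46% against 6.76% over all features and 4.46% in that range. The sum of the 51 genes was 1.71% to 1.74% of the library in control mice and 1.74% to 1.76% in PLDP mice. Log2 fold changes were positive for 34 genes and negative for 17.

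By edgeR's quasi-likelihood test at an unadjusted p under 0.05, the threshold used in the study, 7 of the 51 genes (13.7%) were higher in PLDP mice, against 4.91% of all features tested. Only 1 (1.96%), Vamp1, was lower, against 3.69% of all features, which makes 8 called genes (15.7%) against 8.6% of all features and 9.81% of the features in the same range of mean CPM. No release gene passed a Benjamini-Hochberg adjusted p of 0.05 in that test, where the smallest adjusted p in the list was 0.248 and 6 of all features tested (0.0323%) passed. Of the alternative analyses, leaving out PLDP mouse 17 gave an adjusted p under 0.05 to 4 release genes (Vamp1, Cplx2, Bsn and Unc13a) and testing without a filter on low counts gave it to Vamp1. All 3 PLDP mice lay above all 3 control mice for 8 genes, against 7.29% of all features, and below them for 2, against 6.9%. Together these 10 of the 51 genes stand against 14.2% of all features. With 3 mice against 3, the smallest p that an exact two-sided permutation test can give for any gene is 0.1.

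**Figure D2:**
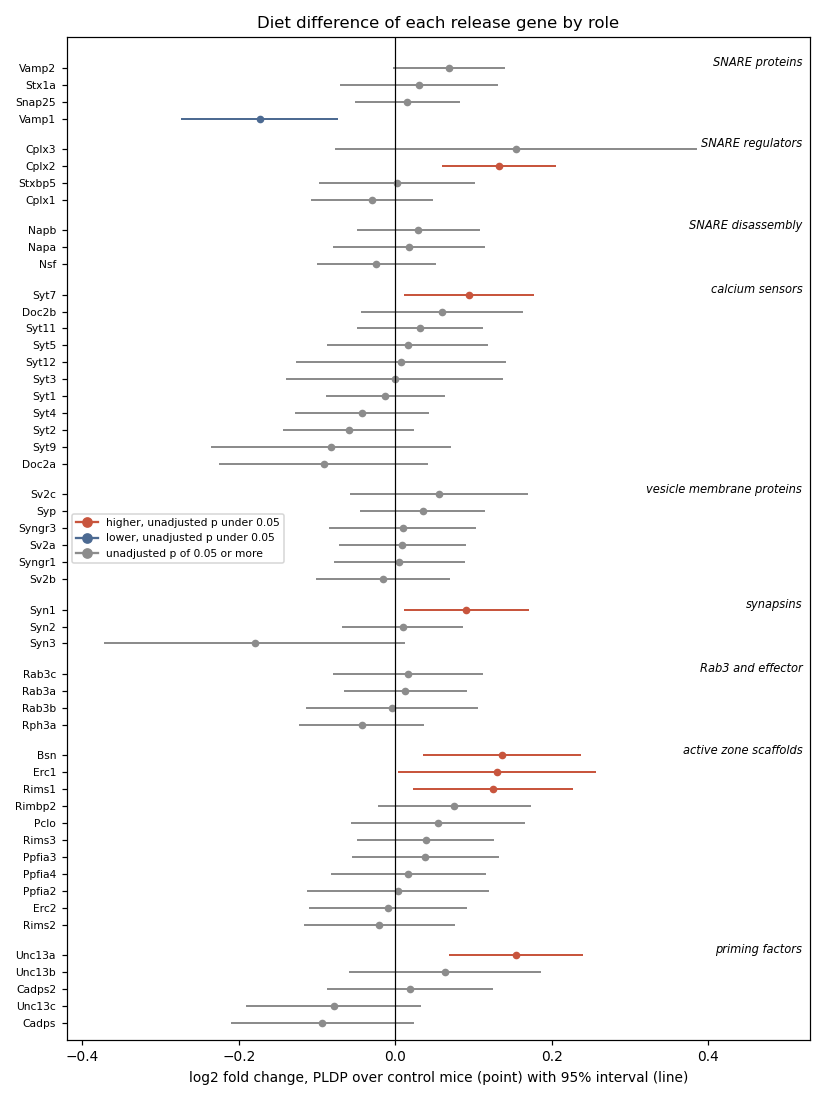
Log2 fold change of each release gene (PLDP over control mice, point) with its 95% interval (line) from edgeR's quasi-likelihood fit, grouped by role. Red marks the 7 genes called higher and blue the 1 called lower at an unadjusted p under 0.05, and gray intervals reach 0.

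Among the SNARE proteins Vamp1 fell, and the others gave no call. Vamp1 (synaptobrevin-1), the vesicle SNARE known for its high level in brainstem and spinal cord neurons, had 351, 346 and 327 CPM in control mice 2, 5 and 10 and 322, 283 and 303 CPM in PLDP mice 17, 22 and 26. The diets did not overlap, and PLDP mouse 22 was lowest. Vamp1 thus fell on average from 342 ± 12.9 CPM in control mice to 303 ± 19.3 CPM in PLDP mice (SD, n = 3 per diet). Its log2 fold change was -0.17 (SE 0.05, edgeR unadjusted p = 0.00175, adjusted p = 0.271). Vamp1 spans chr6:125215551-125245964.

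Its paralog Vamp2 (synaptobrevin-2), the main vesicle SNARE of forebrain synapses, had 913, 892 and 874 CPM in control mice and 926, 942 and 943 CPM in PLDP mice. These groups did not overlap either, in the opposite direction, but the log2 fold change of 0.07 missed the threshold (edgeR unadjusted p = 0.0542, adjusted p = 0.59). Snap25, the highest gene of this role, had 1880, 1874 and 1846 CPM in control mice and 1832, 1917 and 1910 CPM in PLDP mice. PLDP mice lay on both sides of the control mice, and the log2 fold change was 0.02 with a 95% interval of -0.05 to 0.08. For Stx1a, the plasma membrane syntaxin that pairs with Snap25, the log2 fold change was 0.03 (interval -0.07 to 0.13).

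Among the SNARE regulators Cplx2 rose. Complexin-2, which clamps and assists SNARE complexes mainly in forebrain neurons, had 1080, 1043 and 1050 CPM in control mice and 1122, 1172 and 1184 CPM in PLDP mice, with no overlap. The mean went from 1057 ± 19.9 to 1159 ± 32.7 CPM (SD, n = 3 per diet), 9.61% higher, with a log2 fold change of 0.13 (SE 0.03, edgeR unadjusted p = 0.00121, adjusted p = 0.248). This was the smallest p in the list. Cplx2 spans chr13:54371349-54383917. Cplx1 had 852, 843 and 799 CPM in control mice and 834, 810 and 801 CPM in PLDP mice, which overlap, and a log2 fold change of -0.03 (interval -0.11 to 0.05). Cplx3 was too low for a firm statement, with 8.88 to 12.1 CPM in control mice, 11.1 to 12.2 CPM in PLDP mice and an interval of -0.08 to 0.38. Stxbp5 (tomosyn), which occupies SNAREs in unproductive complexes, had a log2 fold change of 0.00 (interval -0.10 to 0.10).

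No gene of SNARE disassembly was called. Nsf had 729, 709 and 709 CPM in control mice and 680, 713 and 717 CPM in PLDP mice. PLDP mouse 17 was lowest and the others lay within the control range. The log2 fold changes of Nsf and its adaptors Napa and Napb were -0.02, 0.02 and 0.03, and all of their intervals lay between -0.10 and 0.11.

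Of the 11 synaptotagmins and Doc2 proteins grouped here as calcium sensors, Syt7 rose (9.09%, against 4.91% of all features) and 10 were not called. Syt7, the slow, high-affinity sensor linked with facilitation and asynchronous release, had 372, 372 and 374 CPM in control mice and 379.5, 409 and 405 CPM in PLDP mice. The groups did not overlap, and PLDP mouse 17 lay nearest to the control mice. Its mean went from 373 ± 1.15 to 398 ± 16.0 CPM (SD, n = 3 per diet), with a log2 fold change of 0.09 (SE 0.04, edgeR unadjusted p = 0.0264, adjusted p = 0.501). Leaving out control mouse 2, control mouse 5, PLDP mouse 22 or PLDP mouse 26 ended this call. Syt7 spans chr19:10389090-10453180. Syt11, the highest of this role per kb of exon, had 805, 797 and 746 CPM in control mice and 804, 781 and 815 CPM in PLDP mice, which overlap. Syt1 had a log2 fold change of -0.01 (interval -0.09 to 0.06). Syt2, the fast sensor of many hindbrain synapses, was lower in every PLDP mouse (190.3, 183 and 186 CPM) than in every control mouse (198, 191 and 194 CPM), without passing the test (log2 fold change -0.06, edgeR unadjusted p = 0.146). Doc2b, a high-affinity sensor of spontaneous release, did not overlap in the other direction, with 59.8 to 63.7 CPM in control mice, 64.3 to 65.0 CPM in PLDP mice and a log2 fold change of 0.06 (edgeR unadjusted p = 0.234).

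The vesicle's own membrane proteins gave no call in any of 6 genes. Syp had 1392, 1387 and 1303 CPM in control mice and 1451, 1348 and 1382 CPM in PLDP mice, which overlap. The log2 fold changes of Syp, the synaptogyrins Syngr1 and Syngr3 and the SV2 glycoproteins Sv2a, Sv2b and Sv2c ran from -0.02 to 0.06. The summed level of these 6 genes was 2832 to 2974 CPM in control mice and 2933 to 3023 CPM in PLDP mice.

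Syn1 rose within the synapsins, and Syn2 and Syn3 gave no call. Synapsin I, an abundant phosphoprotein that ties vesicles into the reserve pool, had 455, 437 and 439 CPM in control mice and 459, 474 and 484 CPM in PLDP mice, with the groups apart by a narrow gap. The mean went from 444 ± 9.90 to 473 ± 12.5 CPM (SD, n = 3 per diet), with a log2 fold change of 0.09 (SE 0.04, edgeR unadjusted p = 0.0259, adjusted p = 0.497). Leaving out control mouse 5, control mouse 10, PLDP mouse 22 or PLDP mouse 26 ended this call. Syn1 spans chrX:20860511-20921004. Syn2 had a log2 fold change of 0.01 (interval -0.07 to 0.09). Syn3, the lowest gene of the list per kb of exon, had 16.5, 15.5 and 17.6 CPM in control mice and 13.0, 16.0 and 14.6 CPM in PLDP mice. Its log2 fold change of -0.18 came with a wide interval of -0.37 to 0.01.

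No gene among Rab3a, Rab3b, Rab3c and the effector Rph3a (rabphilin) was called. Rab3a had 483, 486 and 465 CPM in control mice and 494, 478 and 475 CPM in PLDP mice, and the groups overlapped. The 4 log2 fold changes ran from -0.04 to 0.02 and their intervals stayed between -0.12 and 0.11.

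Of the 11 active zone scaffolds 3 were called higher (27.3%, against 4.91% of all features) and none lower, and 9 of the 11 log2 fold changes were positive. Each of these 3 calls was lost without PLDP mouse 22, where the log2 fold changes were 0.10 for Bsn, 0.08 for Rims1 and 0.09 for Erc1. Bsn (bassoon), a giant scaffold that organises the active zone, had 353, 339.7 and 369 CPM in control mice and 361, 408 and 398 CPM in PLDP mice. PLDP mouse 17 lay within the control range and the other PLDP mice above it. The mean went from 354 ± 14.8 to 389 ± 24.8 CPM (SD, n = 3 per diet), with a log2 fold change of 0.14 (SE 0.05, edgeR unadjusted p = 0.0103, adjusted p = 0.42). Bsn spans chr9:108096022-108190384. Its partner Pclo (piccolo) had a log2 fold change of 0.05 (interval -0.05 to 0.16) and was not called.

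Rims1, which binds Rab3 and draws calcium channels to the release site, had 150.7, 150.8 and 142 CPM in control mice and 151.5, 170.2 and 161 CPM in PLDP mice. The groups did not overlap, but PLDP mouse 17 was nearly level with the highest control mice. The mean went from 148 ± 5.35 to 161 ± 9.36 CPM (SD, n = 3 per diet), with a log2 fold change of 0.12 (SE 0.05, edgeR unadjusted p = 0.0189, adjusted p = 0.461). Rims1 spans chr1:22286251-22805994. Erc1 (ELKS), a scaffold that binds RIM proteins, had 54.7, 47.9 and 53.4 CPM in control mice and 54.4, 59.6 and 56.5 CPM in PLDP mice, with overlap, a log2 fold change of 0.13 (SE 0.06, edgeR unadjusted p = 0.044, adjusted p = 0.563) and the position chr6:119570796-119848167. Erc1 also missed the threshold without control mouse 5, the lowest, where its log2 fold change was 0.07, and without PLDP mouse 26, where it stayed at 0.13.

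Other scaffolds showed smaller differences. Rims3, the highest of this role per kb of exon, had 238, 251 and 242 CPM in control mice and 240.3, 257 and 253 CPM in PLDP mice. These overlap, with a log2 fold change of 0.04 (interval -0.05 to 0.12). Rimbp2, the link between RIM proteins and calcium channels, was above all control mice in every PLDP mouse, with a log2 fold change of 0.08 that was not called (edgeR unadjusted p = 0.12). The liprins Ppfia2, Ppfia3 and Ppfia4 and the scaffolds Rims2 and Erc2 had log2 fold changes from -0.02 to 0.04.

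Unc13a had the highest log2 fold change among the genes called, and it was the only call among the 5 priming factors. Munc13-1 had 280.3, 277 and 299 CPM in control mice and 312, 321 and 319.7 CPM in PLDP mice. The groups stood apart, and the PLDP mice were close together. The mean went from 285 ± 11.9 to 317 ± 4.93 CPM (SD, n = 3 per diet), 11.3% higher, with a log2 fold change of 0.15 (SE 0.04, edgeR unadjusted p = 0.00134, adjusted p = 0.253). Unc13a spans chr8:71624417-71671757. Its paralogs gave no call, with a log2 fold change of 0.06 (interval -0.06 to 0.19) for Unc13b and -0.08 (interval -0.19 to 0.03) for Unc13c, the cerebellum-rich Munc13-3. Cadps and Cadps2, which prime dense-core vesicles, had log2 fold changes of -0.09 and 0.02, and Cadps ranged widely in PLDP mice (216, 264 and 238 CPM) against 253 to 257 CPM in control mice.

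**Figure D3:**
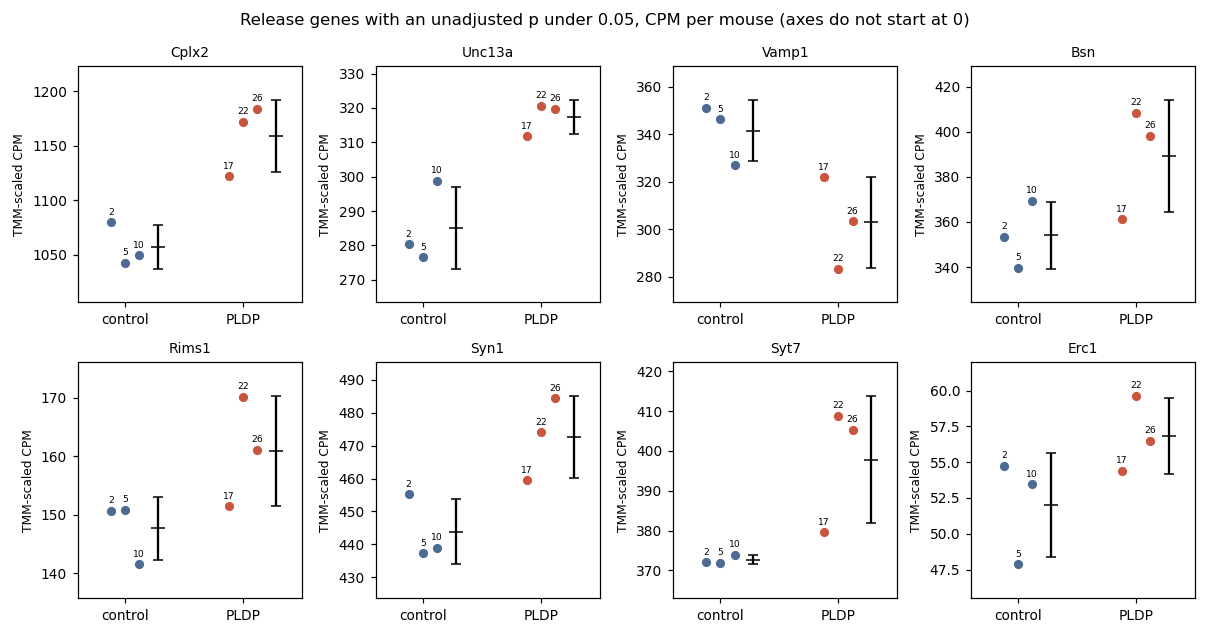
TMM-scaled CPM of the 8 release genes with an unadjusted p under 0.05 in each numbered mouse (blue control, red PLDP), with the mean and SD of each diet beside the points; axes do not start at 0. In Bsn, Rims1, Syn1, Syt7, Cplx2, Erc1 and Unc13a the lowest PLDP mouse is mouse 17, and in Vamp1 the lowest is mouse 22.

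The size of all these differences was small. The 7 rises lay between 6.49% (Syn1) and 11.3% (Unc13a), and the fall of Vamp1 was -11.3%. For 28 of the 43 genes without a call, the whole 95% interval lay at less than a 1.1-fold difference in either direction (higher or lower), whereas the others were measured less tightly.

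PLDP mice differed in how the release genes lay beside the control mice. PLDP mouse 17 was above all control mice for 17 of the 51 genes (33.3%, against 30.2% of all features) and below all of them for 18 (35.3% against 29.2%). Mouse 22 was above for 25 (49.0% against 27.6%) and below for 6 (11.8% against 28.03%), and mouse 26 above for 21 (41.2% against 27.9%) and below for 12 (23.5% against 28.3%). Mouse 22 had the highest level of all 6 mice in 18 genes, and control mouse 10 the lowest in 16. Without mouse 17 the test called 10 genes higher (19.6%) and 2 lower (3.92%), and the shares of all features in that fit were 6.86% higher and 5.69% lower. Without mouse 22 it called 2 higher (Cplx2 and Unc13a) and 3 lower. Those shares of 3.92% and 5.88% stand against 4.20% and 3.98% of all features in that fit. Cplx2, Unc13a and Vamp1 were called in all 15 alternative analyses, with log2 fold changes of 0.12 to 0.16, 0.12 to 0.19 and -0.22 to -0.13.

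Pairs of paralogs gave a measure free of library scaling, since the counts of the pair were divided within each mouse. The pairs were picked after their values were seen and each holds a called gene, so the ratios describe the data and were not tested. Division within a mouse does not remove an effect of GC content. Exon GC content was 56.9% in Vamp2 and 49.9% in Vamp1, 56.3% in Unc13a and 46.0% in Unc13c, and 58.8% in Bsn and 46.6% in Pclo. It was 57.7% in Syn1 and 51.6% in Syn2, and in the other direction 53.7% in Cplx2 and 56.7% in Cplx1. The part of GC content in the ratios was not tested. Vamp2 counts were 2.6002, 2.574 and 2.675 times those of Vamp1 in control mice and 2.876, 3.323 and 3.109 times in PLDP mice. Cplx2 counts were 1.27, 1.24 and 1.31 times those of Cplx1 in control mice and 1.35, 1.45 and 1.48 times in PLDP mice. Unc13a counts were 2.606, 2.549 and 2.753 times those of Unc13c in control mice and 3.304, 3.117 and 2.898 times in PLDP mice. In each of these pairs the lowest PLDP mouse lay above the highest control mouse. The same held for Bsn over Pclo, with 1.63 to 1.70 in control mice and 1.76 to 1.79 in PLDP mice, and for Syn1 over Syn2, with 1.09 to 1.12 and 1.13 to 1.19.

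**Figure D4:**
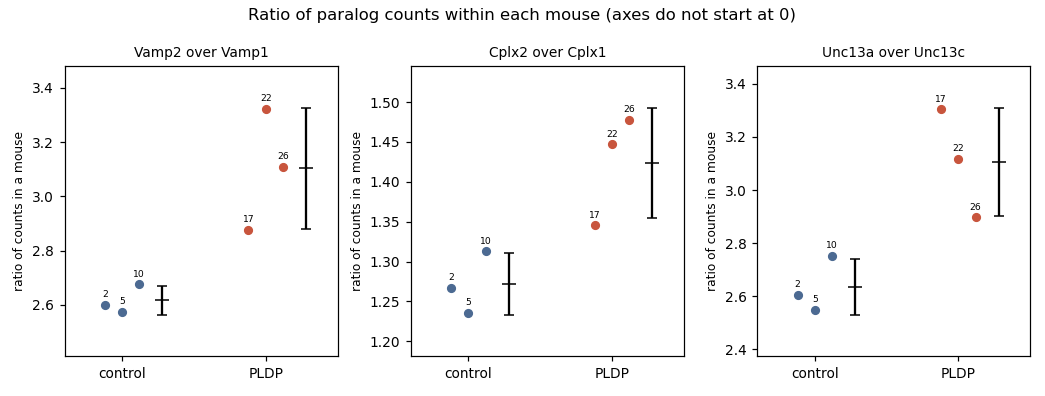
Ratio of the counts of a pair of paralogs within each numbered mouse (blue control, red PLDP) for Vamp2 over Vamp1, Cplx2 over Cplx1 and Unc13a over Unc13c, with mean and SD; axes do not start at 0. In each panel the 3 PLDP mice lie above the 3 control mice, and for Vamp2 over Vamp1 the means are 2.62 and 3.10.

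Markers of brain regions differed between the diet groups in the same libraries. Brainstem and spinal cord markers were called lower for 10 of 11 genes tested (90.9%, against 3.69% of all features; among them Slc6a5, Glra1 and Hoxb3) and higher for none, and their summed level was 164 to 181 CPM in control mice and 88.0 to 126 CPM in PLDP mice. Hoxb8, a spinal cord marker, was at 0 counts in PLDP mice 22 and 26 and at 39 to 98 counts in the others. In PLDP mouse 22 both Vamp1 and the summed brainstem and spinal cord markers were at their lowest. Cortical and hippocampal projection neuron markers were called higher for 4 of 12 genes (33.3%, against 4.91% of all features; among them Bcl11b, Fezf2 and Cux2), with a summed level of 1433 to 1498 CPM in control mice and 1520 to 1568 CPM in PLDP mice. Oligodendrocyte markers were called lower for 4 of 10 genes (40%, against 3.69% of all features; among them Ermn, Aspa and Mbp), with a summed level of 5242 to 5631 CPM and 4876 to 5493 CPM. How much brainstem and spinal cord was taken with each brain is not given in the sources used here, so the extent of tissue and the diet cannot be told apart. The part of these markers in the differences of Vamp1, Syt2, Cplx2 and the other release genes was not tested.

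The other marker lists held 0 to 2 calls each, against 8.6% of all features. Pan-neuronal markers gave 1 higher (Snhg11) and 1 lower (Nefl) of 11 tested (18.2%), striatal markers none of 10, thalamic markers none of 8, cerebellar markers 1 higher (Etv1) of 10 and olfactory bulb markers 1 higher (Eomes) of 8. Astrocyte markers gave 1 lower (Aqp4) of 10, microglial markers 1 lower (P2ry12) of 10 and endothelial and blood markers 2 higher (Pecam1 and Flt1) of 9 (22.2%).

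**Figure D5:**
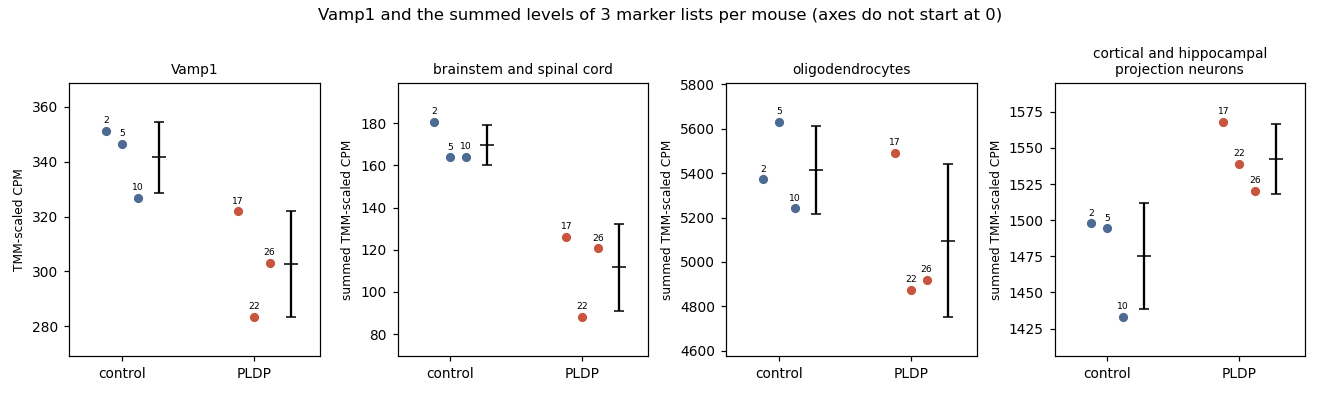
TMM-scaled CPM of Vamp1 and the summed TMM-scaled CPM of 3 marker lists in each numbered mouse (blue control, red PLDP), with mean and SD; axes do not start at 0. Vamp1 and the brainstem and spinal cord markers are both lower in the 3 PLDP mice than in the 3 control mice, with PLDP mouse 22 lowest, and the cortical and hippocampal markers are higher.

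Genes of the vesicle cycle outside the list gave 8 calls among 88 genes tested (9.09%), near the 8.6% of all features. Of 34 other genes of the release machinery tested, 2 were higher, the RIM family member Rims4 (log2 fold change 0.12) and the presynaptic adaptor protein Apba2 (0.09). Those called lower were the vesicle GTPase Rab27b (-0.23) and the vesicle protein Synpr (-0.16). Of 32 endocytosis genes, the clathrin adaptor subunits Ap2a2 and Ap2b1 were higher (log2 fold changes 0.09 and 0.08) and Eps15 was lower (-0.12), and Hspa8, the highest per kb, was not called. None of 6 vesicular transporter genes tested was called by edgeR's quasi-likelihood test, Slc17a7, the highest per kb, included. Of 16 subunits of the vesicle proton pump, Atp6v1h was lower (-0.11) and Atp6v0c, the highest per kb, was not called. The median log2 fold changes of the 4 lists were -0.01, 0.00, -0.12 and -0.01.

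GC content and exon bases shared with other genes were examined for the list. Across features the log2 fold change correlated with the GC content of the exons with a Spearman's rho of 0.14 (n = 17888) over all features with a GENCODE entry and 0.26 (n = 51) over the release genes. Genes are not independent replicates, and the points share the 6 libraries. The median GC content was 52.0% in the 51 genes and 56.3% in the 7 called higher, and once exon length and GC content were corrected for, Syt7 (log2 fold change 0.07) and Erc1 (0.10) missed the threshold. Bsn kept its call under that correction, but its log2 fold change dropped from 0.14 to 0.09. Exon bases were shared with another annotated gene in 20 of the 51 genes, mostly on the opposite strand, and over 10% of the exon length in 7. Among the called genes Erc1 shared 11.8% with Gm44317, which had no counts in any mouse, Syt7 5.13% with Gm26859, and Unc13a 3.92% with Colgalt1, which had 946 to 1201 counts. The shares of Bsn (0.358%) and Syn1 (0.273%) were smaller. The libraries were made with a stranded kit, but whether strand was used in counting is not given in the sources used here, so reads from these bases cannot be assigned.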

How the data were processed

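Whole-brain RNA of 6 mice was measured by paired-end 150-base sequencing of TruSeq Stranded mRNA libraries. The authors deposited raw read counts per feature, 1 table for each mouse, and the submitters' processing notes name cutadapt 2.9, HISAT2 2.2.0, featureCounts 2.6.0 and DESeq2 1.6.3 with the builds GRCm38 and GRCh38. Strand and multimapping settings of the counting are not given in the sources used here. The 51 genes, the roles, the pathway lists and the marker lists were chosen with earlier results of these data known.

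Counts were tested with edgeR 4.0.16 (R 4.3.3): low features were dropped by filterByExpr (at least 10 counts, and 15 in total), scaling was by TMM, and glmQLFit and glmQLFTest ran on all features with no covariate. Calls used an unadjusted p under 0.05, with Benjamini-Hochberg adjustment over all features beside it. Full values are given for every called member and for the member highest per kb in each of the 9 roles. Of the pathway lists, called genes and the highest gene are named (1 highest gene is not reported here), and of marker lists up to 3 called genes by smallest p. In all, 15 alternatives were run, among them DESeq2 1.42.0, limma voom 3.58.1, other scalings, other filters, a spline of 5 degrees of freedom on GC content and length, and leaving out each of the 6 mice. Each mouse is a separate animal. Tubb3 and Cdh15 of the marker lists were not analysed here.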

Additional observations from a re-analysis of the deposited data

How the results depend on the processing

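No paired analysis was possible because the mice of the 2 diets share no numbers. DESeq2 called 926 of all features in place of 1598, and no filter on low counts and the GC and length correction each called 3 release genes lower in place of 1 (5.88%, against 2.898% and 4.489% of all features). Among the 88 other genes of the vesicle cycle 8 were called (against 8.6% of all features). The exact test called 5 (against 8.32%) and the GC and length correction 12 (against 9.75%). That correction called 5 release genes higher in place of 7 (9.80%, against 5.26% of all features). Leaving out each mouse in turn gave 2 (without PLDP mouse 22) to 10 (without PLDP mouse 17) release genes higher, and 4 without control mouse 5 or PLDP mouse 26 (against 3.36% to 6.86% of all features). It gave 1 to 3 release genes lower (against 2.59% to 5.69%). Other vesicle cycle genes had 3 calls without control mouse 5 (against 6.49% of all features), 4 without control mouse 2 (against 5.95%) and up to 13 without PLDP mouse 17 (against 12.5%). Release genes whose diets did not overlap numbered 12 to 19 (23.5% to 37.3%, against 22.1% to 29.2% of all features), since 2 mice against 3 separate more readily. They were 16 without control mouse 10 and 19 without PLDP mouse 17. Over all features these fits gave 1133 to 2365 calls, and the median log2 fold change of the release genes was 0.0026 to 0.020.

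Bsn lost its call without control mouse 5 or PLDP mouse 22, and Rims1 without control mouse 10 or PLDP mouse 22. Syn1, Syt7 and Erc1 each kept theirs in 10 of 15 alternatives, and Syn1 and Syt7 lost theirs in 4 and Erc1 in 3 of the 6 fits that leave out a mouse. Syn1 also missed the threshold in the exact test and Erc1 in DESeq2. Release genes called only in some alternatives were Cadps, Syn3, Vamp2, Cplx3, Doc2a, Pclo, Rimbp2 and Unc13c. With 3 mice in each diet and SEs of 0.03 to 0.11 on the log2 scale, differences of the size found here lie near the limit of what the data resolve, and the p-values cover only the spread between these mice.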
